A study of Mus musculus with 4 samples.

Results

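The genes described here are 48 genes grouped as collagen and fibroblast matrix genes of the dura mater, the tough outer membrane around the brain. Most encode collagens and other extracellular matrix proteins, and the rest include growth factor-binding proteins, receptors and a transporter. Not each of them is particular to fibroblasts. The 48 genes were chosen by gene symbol, with no threshold on their values but with earlier results of these data known. All 48 were present among the 55401 genes of the deposited tables. They passed the expression filter that left 19806 genes for testing. They were measured in leukocytes, cells that bear the surface protein CD45, sorted from the dura mater of wild-type male mice. The study asked how these dural immune cells respond to vascular endothelial growth factor-C (VEGF-C), a growth factor for lymphatic vessels. At 4 wk of age the mice had received 2 μl of an adeno-associated virus of serotype 9 (AAV) into the cisterna magna, a fluid-filled space below the cerebellum. The AAV-mVEGF-C group received a vector for full-length mouse VEGF-C. The AAV-CTRL group received a vector for a soluble fragment of the VEGF-C receptor VEGFR-3, fused to an immunoglobulin tail, which lacks the domains that bind VEGF-C. Both groups thus carried a virus and a secreted protein, and no group without virus was analysed here. Which cells expressed the vectors in the dura was not measured in these data. Each group had 2 libraries, each made from the pooled cells of 10 to 12 mice, so the spread between libraries of a group is that between pools and not that between animals.

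Fibroblasts build the matrix of the dura. They secrete procollagens that assemble outside the cell into the strong fibrils of type I collagen, and they add proteins that limit, cross-link and organize these fibrils. Small leucine-rich proteoglycans bind the fibrils and set their diameter, lysyl oxidases cross-link them, and metalloproteinases with their inhibitors turn them over. Fibroblasts do not bear CD45. Fibrocytes, rare cells of blood origin, bear CD45 and make type I collagen, and macrophages also make fibronectin. Which of the sorted cells held the transcripts described here was not tested.

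Reads assigned to genes numbered 32520709 to 46409700 per library. The most deeply sequenced library, AAV-CTRL 1, detected the fewest genes, 20993, against 29230 to 37535 in the other 3 libraries. *Ptprc*, the gene of CD45, was at 215 and 211 TPM (a share of transcripts that is scaled for gene length) in AAV-CTRL 1 and 2, and at 199.97 and 191 TPM in AAV-mVEGF-C 1 and 2. Reads scaled for library size are given as CPM (counts per 1000000, scaled by edgeR's TMM factors). The 10 leukocyte genes summed to 4127 to 4956 CPM in the 4 libraries, so the defining genes of the labelled cell type were present.

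The transcripts of the 48 genes were present in every library but took up little of it. They held 0.297% of the reads in AAV-CTRL 1 (95% Wilson interval, 0.296 to 0.299) and 0.456% in AAV-CTRL 2 (0.454 to 0.458). They held 0.236% in AAV-mVEGF-C 1 (0.235 to 0.238) and 0.282% in AAV-mVEGF-C 2 (0.280 to 0.284). The intervals reflect counting within each library alone and not the spread between pools. PCR copies of a molecule count as separate reads, so the intervals can be too narrow even for counting. Both AAV-mVEGF-C libraries lay below both AAV-CTRL libraries, but the lower control and the higher treated library were close to each other. The mean share was 0.377% ± 0.112 (SD, n = 2) in AAV-CTRL and 0.259% ± 0.0322 (SD, n = 2) in AAV-mVEGF-C, a ratio of 0.688. As a share of TPM, the 48 genes held 0.0546% and 0.0955% in the controls, and 0.0395% and 0.0528% in the treated libraries. In bulk samples such as these, fewer cells of a type and less RNA per cell cannot be told apart.

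On the length-scaled level, the most abundant of the 48 genes was *Mgp*, a small protein that blocks calcification of matrix, with a mean of 117 TPM over the 4 libraries. It was followed by *Fn1* (fibronectin) with 72.9 TPM, *Igfbp5* with 68.9 TPM and *Igfbp4* with 57.4 TPM. The chains of type I collagen, *Col1a2* and *Col1a1*, came next with 31.6 and 30.6 TPM. *Col1a1* amounted to 0.147 and 0.251 of the *Ptprc* TPM in the controls, and to 0.0809 and 0.115 in the treated libraries. For *Fn1* the ratio to *Ptprc* was 0.391 and 0.313 in the controls and 0.393 and 0.331 in the treated libraries, so the groups overlapped.

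The sequences below are windows of 300 bases around the start sites of 5 of these genes. They are shown because *Timp3*, *Ogn* and *Aspn* had the smallest p-values of the 48 genes, *Ogn* and *Aspn* being neighbors, because *Col1a2* was the most abundant fibrillar collagen by TPM, and because *Col4a2* shares its start region with *Col4a1*. They are RefSeq sequences of build GRCm38.p6, from 250 bases before to 50 bases after the start site. Capitals mark matches, on either strand, to 3 short motifs of promoters. The TATA box was searched as TATAA, the GC box as GGGCGG, and the CCAAT box by the letters of its name, and matches may overlap.
Col1a2, chr6:4505368-4505667, plus strand: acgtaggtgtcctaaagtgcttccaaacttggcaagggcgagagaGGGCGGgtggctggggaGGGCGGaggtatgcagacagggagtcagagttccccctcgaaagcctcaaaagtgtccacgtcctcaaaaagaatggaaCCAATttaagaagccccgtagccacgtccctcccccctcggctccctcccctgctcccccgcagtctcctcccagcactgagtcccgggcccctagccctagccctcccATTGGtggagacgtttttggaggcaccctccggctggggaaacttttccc
Col4a2, chr8:11312555-11312854, plus strand: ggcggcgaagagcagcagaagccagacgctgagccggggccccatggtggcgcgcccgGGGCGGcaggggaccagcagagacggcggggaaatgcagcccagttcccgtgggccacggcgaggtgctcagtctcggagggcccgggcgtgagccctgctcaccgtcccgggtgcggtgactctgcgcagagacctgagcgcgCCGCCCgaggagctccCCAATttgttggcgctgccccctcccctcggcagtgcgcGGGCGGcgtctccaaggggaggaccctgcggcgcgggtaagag
Timp3, chr10:86300162-86300461, plus strand: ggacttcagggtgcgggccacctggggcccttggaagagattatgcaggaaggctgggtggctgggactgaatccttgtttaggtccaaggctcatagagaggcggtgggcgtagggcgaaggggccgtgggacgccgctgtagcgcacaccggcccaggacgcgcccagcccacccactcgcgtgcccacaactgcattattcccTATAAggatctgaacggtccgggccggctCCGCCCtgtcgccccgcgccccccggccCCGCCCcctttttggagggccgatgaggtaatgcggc
Ogn, chr13:49607765-49608064, plus strand: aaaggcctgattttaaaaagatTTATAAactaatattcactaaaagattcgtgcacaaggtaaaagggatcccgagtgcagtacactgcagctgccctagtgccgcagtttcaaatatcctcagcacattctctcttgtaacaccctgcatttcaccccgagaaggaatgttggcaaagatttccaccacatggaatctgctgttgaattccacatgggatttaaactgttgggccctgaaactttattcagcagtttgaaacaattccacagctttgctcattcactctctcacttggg
Aspn, chr13:49544193-49544492, plus strand: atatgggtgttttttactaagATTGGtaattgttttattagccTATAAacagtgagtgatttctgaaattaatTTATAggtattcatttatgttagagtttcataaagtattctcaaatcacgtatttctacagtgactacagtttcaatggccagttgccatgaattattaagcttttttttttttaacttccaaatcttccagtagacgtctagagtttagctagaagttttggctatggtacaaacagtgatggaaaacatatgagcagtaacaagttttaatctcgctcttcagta

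The window of *Col1a2* held 2 GC boxes and 2 CCAAT boxes, and that of *Col4a2* held 3 GC boxes and 1 CCAAT box. The window of *Timp3* held 1 TATA box and 2 GC boxes. Those of the neighbors *Ogn* and *Aspn* held no GC box. The start sites of *Col4a1* and *Col4a2* lay 21 bases apart on opposite strands, and the window of *Col4a2* contained both. RefSeq windows were found for 31 of the 48 genes, 35 windows in total. The GC box was found in 20 of these 35 windows (57.1%), against 35.7% of all 32841 promoter windows of this length. The shares were 31.4% against 24.9% for the TATA box and 37.1% against 37.4% for the CCAAT box. A match to these letters is a description and does not show that a factor binds there.

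Between the groups, most of the 48 genes were lower in AAV-mVEGF-C than in AAV-CTRL, without any gene passing the adjusted threshold in the main fit with edgeR. The fitted log2 fold change of AAV-mVEGF-C over AAV-CTRL was below 0 for 43 genes and above 0 for *Col15a1*, *Lamc1*, *Fn1*, *Eln* and *Fap*. Its median over the 48 genes was -0.76, against 0.0034 over all genes tested. In edgeR's quasi-likelihood test, 17 of the 48 genes had an unadjusted p under 0.05 and lower levels, against 1.18% of all genes tested, and 0 had an unadjusted p under 0.05 and higher levels (1.46% of all genes tested). With Benjamini-Hochberg adjustment over all genes tested, edgeR called 0 of the 48 genes and 0 of all genes (0%), of which 523 had an unadjusted p under 0.05. The adjusted p was 0.999 for each of the 48 genes. DESeq2, the tool named by the study, called 77 genes and 1 of the 48, *Ogn* (adjusted p = 0.0366), where 0.0758% of its genes were called lower. Both AAV-mVEGF-C libraries were below both AAV-CTRL libraries in CPM for 29 of the 48 genes (15.2% of all genes tested), and the groups overlapped for the other 19. In TPM, 28 of the 48 genes were below (28.5% of all genes tested). The 48 genes were measured in the same 4 libraries, and most of them were higher in the same library of each group. They are thus not independent replicates of the treatment, and they were chosen with earlier results of these data known. Their shares beside those of all genes are a description. Overlap below is judged in CPM unless TPM is named.

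**Figure D1:**
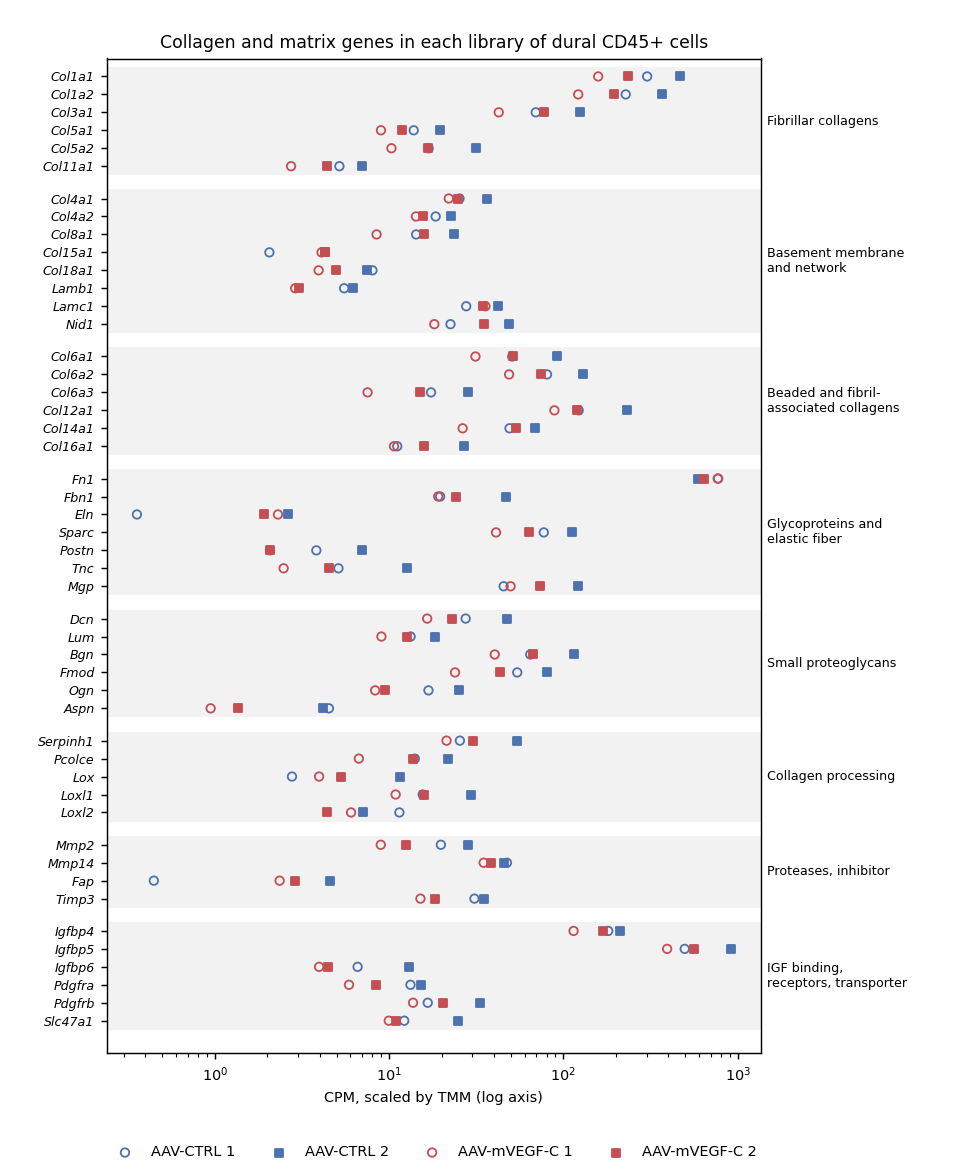
CPM of each of the 48 genes (x axis, log scale) in the 4 libraries, grouped by the role of the gene product, with blue for AAV-CTRL, red for AAV-mVEGF-C, open circles for library 1 and filled squares for library 2. AAV-CTRL 2 was the highest library for most genes, and the red points lay below both blue points for 29 of the 48 genes.

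The libraries of a group also differed from each other in these genes. AAV-CTRL 2 was above AAV-CTRL 1 in 43 of the 48 genes, with a median difference of 0.70 in log2 CPM. AAV-mVEGF-C 2 was above AAV-mVEGF-C 1 in 44 of the 48 genes, with a median difference of 0.50. The difference between groups depended on which libraries were set against each other. Between libraries of the same experiment number, the median was -0.70 for AAV-mVEGF-C 1 minus AAV-CTRL 1, with 42 genes below 0, and -0.79 for AAV-mVEGF-C 2 minus AAV-CTRL 2, with 46 genes below 0. Between libraries of unlike number it was -1.38 for AAV-mVEGF-C 1 minus AAV-CTRL 2, with 47 genes below 0, and -0.10 for AAV-mVEGF-C 2 minus AAV-CTRL 1, with 30 genes below 0. The median over the tested genes with reads in both libraries compared stayed between -0.017 and 0.029 in these 6 differences. Labels number the experiments 1 and 2 in each group. The table columns are numbered 2 and 3 for AAV-CTRL 1 and 2, and begin with 1 and 2 for AAV-mVEGF-C 1 and 2. By column number, AAV-CTRL 1 thus matches AAV-mVEGF-C 2, the pair with the median of -0.10, so which pools were handled together is not settled.

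**Figure D2:**
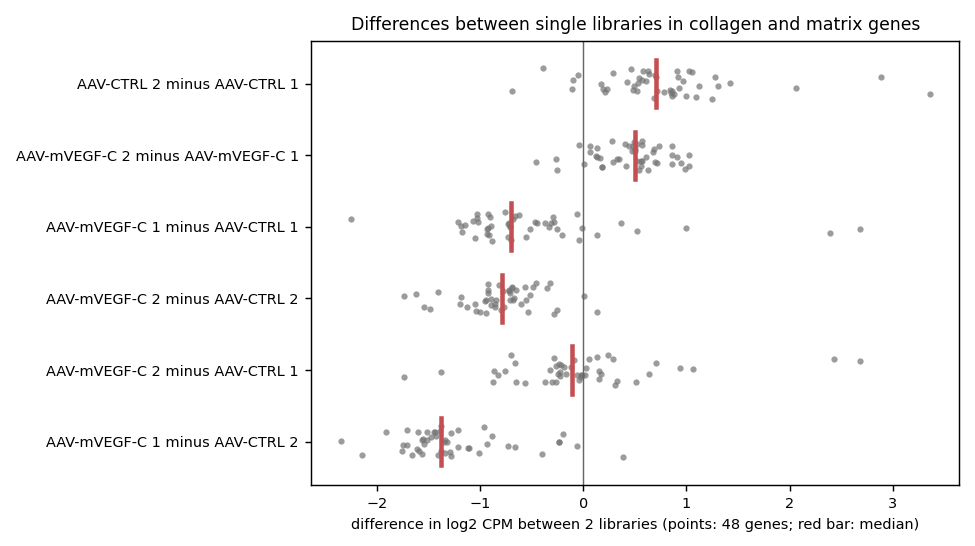
Difference in log2 CPM between 2 libraries (x axis) for each of the 48 genes (points), with the median as a red bar, for the 2 differences within groups and the 4 between groups. The medians within groups were 0.70 (AAV-CTRL) and 0.50 (AAV-mVEGF-C), and those between libraries of the same number were -0.70 and -0.79.

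The difference between groups was smaller without AAV-CTRL 2 and larger without AAV-CTRL 1, the control that detected the fewest genes. Without AAV-CTRL 2, the log2 fold change turned above 0 for *Lox* (0.75), *Mgp* (0.45), *Col16a1* (0.26) and *Nid1* (0.25). It also did so for *Fbn1* (0.16), *Pdgfrb* (0.038) and *Serpinh1* (0.025). In this setting the median over all genes tested was 0.13, against 0.0034 with all libraries. The median over the 48 genes was then -0.31, 37 genes were below 0, and 12 had an unadjusted p under 0.05 and lower levels (10.4% of all genes tested) while 3 were higher (18.5%). Of the 48 genes, 7 then passed the adjusted threshold and were lower (3.04%). These values are from edgeR, the lone control being assumed to vary like the treated group. Without AAV-CTRL 1, the median was -1.09, 41 genes had an unadjusted p under 0.05 and lower levels (4.33% of all genes tested), and 32 passed the adjusted threshold and were lower (1.07%). Without AAV-mVEGF-C 1 the median was -0.46 and 4 genes had an unadjusted p under 0.05 and lower levels (0.291%). Without AAV-mVEGF-C 2 the median was -1.03 and 27 genes did (0.878%). The number of calls also moved with the tool. DESeq2 gave 28 of the 48 genes an unadjusted p under 0.05 and lower levels (0.861% of its genes), edgeR without the expression filter gave 36 (1.65%), of which 13 passed the adjusted threshold (0.189%), and limma on log2(TPM + 1) gave 11 (3.06%). With the experiment number as a block, 31 genes had an unadjusted p under 0.05 and lower levels (1.18%) and 0 passed the adjusted threshold (0.0555% of all genes). With the numbers crossed, 15 did (1.09%) and again 0 passed (0.273% of all genes).

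Among the fibrillar collagens, which form the load-bearing fibrils, all 6 genes had a log2 fold change below 0, with a median of -0.80. *Col1a1* (ENSMUSG00000001506.10, GRCm38 chr11:94936224-94953042, plus strand), the alpha 1 chain of type I collagen, was at 302 and 468 CPM in the controls and at 158 and 234 CPM in the treated libraries (libraries 1 and 2 of each group, in this order here and below). Both treated libraries were below both controls, and the group means were 385 ± 117 and 196 ± 53.5 CPM (SD, n = 2). Its log2 fold change was -0.97 (standard error 0.29, edgeR unadjusted p = 0.014). *Col1a2* (ENSMUSG00000029661.16, chr6:4504814-4541544, plus strand), its partner chain, was at 228 and 369 CPM in the controls and at 122 and 194 CPM in the treated libraries, a log2 fold change of -0.92 (standard error 0.32, unadjusted p = 0.027). The groups did not overlap for either chain. Type I collagen consists of both chains, and in TPM the ratio of *Col1a1* to *Col1a2* was 0.974, 0.977, 1.03 and 0.903 in AAV-CTRL 1 and 2 and AAV-mVEGF-C 1 and 2. The ratio thus stayed near 1 in all 4 libraries while the level of each chain varied more than 2-fold. *Col3a1*, the chain of type III collagen that mixes into thin fibrils, was at 69.4 and 125 CPM in the controls and at 42.5 and 77.1 CPM in the treated libraries, with overlapping groups. The TPM ratio of *Col3a1* to *Col1a1* was 0.285 and 0.436 in the controls and 0.376 and 0.608 in the treated libraries, so the second library of each group had the higher ratio. *Col5a1*, *Col5a2* and *Col11a1*, minor chains that start fibrils and limit their width, had log2 fold changes of -0.68, -0.84 and -0.76. Their groups did not overlap in CPM, whereas in TPM those of *Col11a1* did.

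The basement membrane and network genes encode sheet-forming proteins, and 6 of 8 had a log2 fold change below 0, with a median of -0.44. *Col4a1* (ENSMUSG00000031502.11, chr8:11198423-11312826, minus strand), a chain of the type IV collagen network, was at 25.3 and 36.5 CPM in the controls and at 21.99 and 24.9 CPM in the treated libraries. Its log2 fold change was -0.40 (standard error 0.23, unadjusted p = 0.136), and the highest treated library was next to the lowest control. *Col4a2*, transcribed from the shared start region printed above, was at 18.5 and 22.6 CPM in the controls and at 14.3 and 15.6 CPM in the treated libraries (log2 fold change -0.46). *Lamc1* (ENSMUSG00000026478.14, chr1:153218922-153332786, minus strand), the gamma chain of most laminins, was at 27.7 and 42.1 CPM in the controls and at 35.7 and 34.6 CPM in the treated libraries. The treated libraries lay between the controls (log2 fold change 0.012, standard error 0.24, unadjusted p = 0.960). In TPM, *Lamc1* was instead lower in both treated libraries, at 4.995 and 4.31 in the controls and 3.15 and 2.94 in the treated libraries. *Lamb1*, a beta chain of laminin, and *Col18a1*, whose end fragment is endostatin, had log2 fold changes of -0.99 and -0.80 with unadjusted p-values of 0.025 and 0.040. *Col15a1* (log2 fold change 0.41), *Col8a1* (-0.63) and *Nid1* (-0.42), which encodes the nidogen that links laminin to type IV collagen, overlapped between groups.

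The beaded and fibril-associated collagens, which tie fibrils to cells and to each other, had log2 fold changes below 0 in 6 of 6 genes, with a median of -0.77. *Col6a2* (ENSMUSG00000020241.13, chr10:76595762-76623630, minus strand), a chain of the beaded type VI collagen, was at 80.5 and 129 CPM in the controls and at 48.8 and 74.2 CPM in the treated libraries, a log2 fold change of -0.77 (standard error 0.30, unadjusted p = 0.042). Its neighbor *Col6a1* was at 50.8 and 92.3 CPM in the controls and at 31.3 and 51.3 CPM in the treated libraries, and here the groups overlapped slightly. The TPM ratio of *Col6a1* to *Col6a2* was 0.658 to 0.746 in the 4 libraries. *Col6a3*, the third chain, had a log2 fold change of -1.03 (unadjusted p = 0.041). *Col12a1* (ENSMUSG00000032332.17, chr9:79598991-79718831, minus strand), a collagen that lies along type I fibrils, was at 122 and 233 CPM in the controls and at 88.8 and 120.3 CPM in the treated libraries. Its log2 fold change was -0.76 (standard error 0.33, unadjusted p = 0.058), with AAV-CTRL 2 standing apart from the other 3 libraries. *Col14a1* and *Col16a1*, of the same family, had log2 fold changes of -0.55 and -0.52 with overlap.

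The glycoproteins and elastic fiber genes were mixed, with 5 of 7 below 0 and a median of -0.61. *Fn1* (ENSMUSG00000026193.15, chr1:71585520-71653200, minus strand), the adhesive glycoprotein fibronectin, was the second most abundant of the 48 genes in TPM, with 772 and 588 CPM in the controls and 767 and 644 CPM in the treated libraries. The groups overlapped (log2 fold change 0.054, standard error 0.20, unadjusted p = 0.8001), and library 1 was the higher in each group. *Fn1* thus ran against the order of AAV-CTRL 1 and 2 seen in 43 of the 48 genes. The sum of the other 47 genes was 2316 and 3831 CPM in the controls and 1535 and 2247 CPM in the treated libraries. *Sparc* (ENSMUSG00000018593.13, chr11:55394500-55423183, minus strand), a collagen-binding glycoprotein, was at 77.2 and 112 CPM in the controls and at 41.1 and 63.3 CPM in the treated libraries without overlap (log2 fold change -0.86, standard error 0.28, unadjusted p = 0.021). *Postn* (ENSMUSG00000027750.16, chr3:54361109-54391037, plus strand), which encodes periostin, was at 3.82 and 6.95 CPM in the controls and at 2.07 and 2.08 CPM in the treated libraries (log2 fold change -1.37, standard error 0.44, unadjusted p = 0.020). *Tnc*, the tenascin of growing and injured matrix, had a log2 fold change of -1.35 (unadjusted p = 0.046). *Mgp* (ENSMUSG00000030218.2, chr6:136872435-136875823, minus strand) was at 45.4 and 122 CPM in the controls and at 49.7 and 73.8 CPM in the treated libraries, so the groups overlapped and the controls spanned the whole range (log2 fold change -0.43, standard error 0.46, unadjusted p = 0.378). Without AAV-CTRL 2 its log2 fold change was 0.45, the opposite direction. *Eln*, the elastin gene, was at 0.358 and 2.65 CPM in the controls and at 2.30 and 1.92 CPM in the treated libraries, low throughout and lowest in AAV-CTRL 1. *Fbn1*, the fibrillin of microfibrils, overlapped as well (log2 fold change -0.61).

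The small leucine-rich proteoglycans, which bind collagen fibrils, had the lowest median of the roles, -0.96, with 6 of 6 genes below 0. In CPM, both treated libraries lay below both controls for 5 of 6 genes (15.2% of all genes tested). In TPM they did for 6 of 6 (28.5%). *Aspn* (ENSMUSG00000021388.14, chr13:49544443-49567565, plus strand), which encodes asporin, was at 4.52 and 4.19 CPM in the controls and at 0.947 and 1.36 CPM in the treated libraries. Its controls were close together, and its log2 fold change of -1.92 (standard error 0.45, unadjusted p = 0.0051) was the lowest of the 48 genes. *Ogn* (ENSMUSG00000021390.6, chr13:49608046-49624501, plus strand), which encodes osteoglycin and lies 40480 bases from *Aspn*, was at 16.8 and 25.1 CPM in the controls and at 8.32 and 9.47 CPM in the treated libraries. Its log2 fold change was -1.24 (standard error 0.27, unadjusted p = 0.0037), and it was the gene that DESeq2 called. *Fmod* (ENSMUSG00000041559.7, chr1:134037254-134048277, plus strand), which encodes fibromodulin, was at 54.3 and 80.5 CPM in the controls and at 23.9 and 43.4 CPM in the treated libraries (log2 fold change -1.003, standard error 0.33, unadjusted p = 0.023). *Dcn* (ENSMUSG00000019929.16, chr10:97479609-97518143, plus strand), the decorin gene, was at 27.5 and 47.4 CPM in the controls and at 16.5 and 22.9 CPM in the treated libraries (log2 fold change -0.92, standard error 0.31, unadjusted p = 0.025). Its neighbor *Lum*, the lumican gene, had a log2 fold change of -0.53 without overlap. *Bgn* (ENSMUSG00000031375.17, chrX:73483602-73495933, plus strand), the biglycan gene, was at 64.5 and 116 CPM in the controls and at 40.4 and 67.3 CPM in the treated libraries (log2 fold change -0.74, standard error 0.35, unadjusted p = 0.079), and the groups overlapped slightly.

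**Figure D3:**
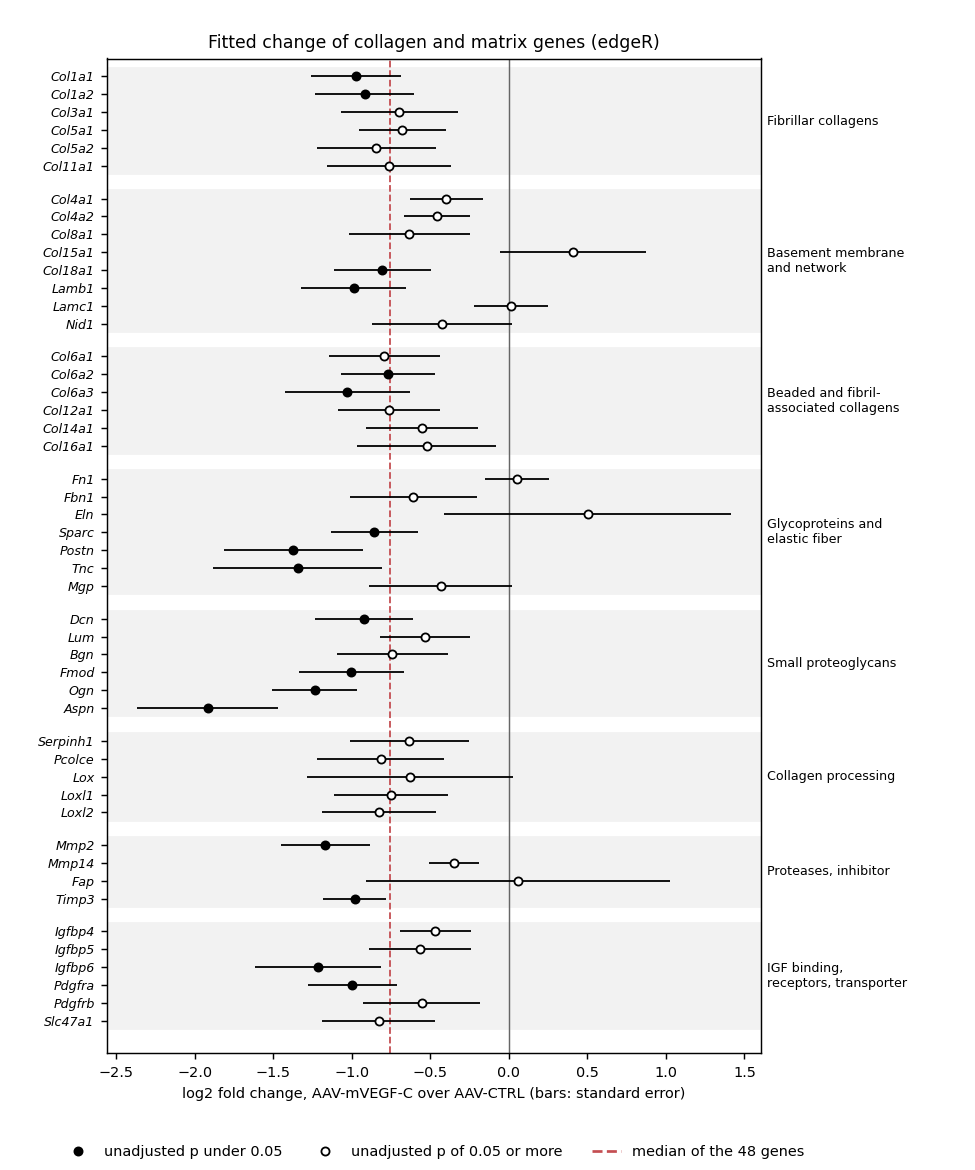
Log2 fold change of AAV-mVEGF-C over AAV-CTRL (x axis) for each of the 48 genes from edgeR, with the standard error as bars, filled points for an unadjusted p under 0.05 and a dashed line at the median of -0.76. The 17 filled points lay at or below -0.77, and none of the 48 genes had an adjusted p under 0.05.

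Genes of collagen processing and cross-linking were below 0 in 5 of 5, with a median of -0.75, and 0 had an unadjusted p under 0.05. *Serpinh1* (ENSMUSG00000070436.12, chr7:99345376-99353239, minus strand), the collagen chaperone HSP47, was at 25.5 and 54.5 CPM in the controls and at 21.3 and 30.2 CPM in the treated libraries (log2 fold change -0.63, standard error 0.38, unadjusted p = 0.146). Its groups overlapped, and without AAV-CTRL 2 the log2 fold change was 0.025. *Pcolce* (ENSMUSG00000029718.14, chr5:137605103-137613784, minus strand), which enhances the trimming of procollagen, was at 14.0 and 21.9 CPM in the controls and at 6.71 and 13.7 CPM in the treated libraries (log2 fold change -0.82, standard error 0.40, unadjusted p = 0.088). The cross-linking enzymes *Lox*, *Loxl1* and *Loxl2* had log2 fold changes of -0.63, -0.75 and -0.83. Only *Loxl2* of these 3 genes did not overlap between groups, and unlike the other 2 it was higher in AAV-CTRL 1 than in AAV-CTRL 2, at 11.5 against 7.11 CPM.

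Among the proteases and their inhibitor, 3 of 4 genes were below 0. *Timp3* (ENSMUSG00000020044.13, chr10:86300372-86349506, plus strand), an inhibitor of metalloproteinases that stays bound to matrix, had the smallest p of the 48 genes. It was at 30.9 and 35.2 CPM in the controls and at 15.1 and 18.3 CPM in the treated libraries, with close replicates and a wide gap between groups. Its log2 fold change was -0.98 (standard error 0.20, unadjusted p = 0.0025). In the annotation, 21.3% of its exon bases are also exons of *Syn3* on the opposite strand, and whether reads were counted by strand is not given in the sources used here. *Mmp2* (ENSMUSG00000031740.8, chr8:92827291-92853420, plus strand), the gelatinase that degrades cleaved collagen, was at 19.8 and 28.4 CPM in the controls and at 8.96 and 12.5 CPM in the treated libraries (log2 fold change -1.17, standard error 0.28, unadjusted p = 0.0058). *Mmp14* (ENSMUSG00000000957.11, chr14:54431612-54445364, plus strand), the membrane-bound protease that activates MMP-2, was at 47.4 and 45.9 CPM in the controls and at 34.9 and 38.4 CPM in the treated libraries. Its difference was smaller but its replicates were close (log2 fold change -0.35, standard error 0.16, unadjusted p = 0.073). *Fap*, a surface protease of activated fibroblasts, was at 0.447 and 4.59 CPM in the controls and at 2.36 and 2.87 CPM in the treated libraries, so the controls enclosed the treated libraries.

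Of the 48 genes, 15 of the 46 with coordinates shared exon bases with another annotated gene. The shared part was 20.1% of the exon bases of *Fbn1* and at most 5.57% for the genes other than *Timp3* and *Fbn1*.

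The last role holds binding proteins of insulin-like growth factors (IGF), the platelet-derived growth factor receptors of fibroblasts and mural cells, and a transporter, and 6 of 6 genes were below 0 with a median of -0.70. *Igfbp5* (ENSMUSG00000026185.8, chr1:72857932-72874884, minus strand) was at 496 and 912 CPM in the controls and at 393 and 558 CPM in the treated libraries, with overlap (log2 fold change -0.57, standard error 0.33, unadjusted p = 0.134). *Igfbp4* (ENSMUSG00000017493.12, chr11:99041244-99054392, plus strand) was at 181 and 212 CPM in the controls and at 114 and 169 CPM in the treated libraries (log2 fold change -0.47, standard error 0.23, unadjusted p = 0.085). Its groups did not overlap in CPM but did in TPM. *Igfbp6* (ENSMUSG00000023046.6, chr15:102144362-102149511, plus strand), which prefers IGF-II, was at 6.60 and 12.9 CPM in the controls and at 3.97 and 4.45 CPM in the treated libraries (log2 fold change -1.21, standard error 0.40, unadjusted p = 0.023). *Pdgfra* (ENSMUSG00000029231.15, chr5:75152292-75198215, plus strand), the receptor that marks fibroblasts, was at 13.3 and 15.3 CPM in the controls and at 5.89 and 8.46 CPM in the treated libraries (log2 fold change -0.996, standard error 0.28, unadjusted p = 0.012). In CPM the groups did not overlap, whereas in TPM they did. *Pdgfrb*, the receptor of mural cells and fibroblasts, overlapped between groups (log2 fold change -0.55), and *Slc47a1*, a transporter of organic cations, did not (-0.83).

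Genes of the same pathway outside the 48 were mixed, and the medians of most of these lists depended on AAV-CTRL 2. Of 19 tested genes of other collagens, 12 were below 0 and 7 above, with a median of -0.32. This median was 0.78 without AAV-CTRL 2 and 0.027 without AAV-mVEGF-C 2. With all libraries it was -0.053 in DESeq2, -0.069 in edgeR without the expression filter and -0.029 on log2(TPM + 1). In the main fit, *Col8a2* (log2 fold change -1.11, standard error 0.32), *Col11a2* (-0.80) and *Col4a5* (-1.53) had an unadjusted p under 0.05. In AAV-CTRL 1, 12 of the 27 genes of this list had 0 reads, against 0, 0 and 3 in the other libraries. Of 27 tested genes of other matrix proteins, 23 were below 0, with a median of -0.61 (-0.14 without AAV-CTRL 2 and -1.02 without AAV-CTRL 1), and 6 had an unadjusted p under 0.05, led by *Efemp1*, a fibulin (-1.14, standard error 0.25, unadjusted p = 0.0035), *Comp* (-1.12) and *Efemp2* (-0.96). Of 11 other laminin and basement membrane genes, 6 were below 0 and 5 above, up to 1.32. Their median of -0.42 was -0.066 with the replicate block, 0.23 without AAV-CTRL 2 and -0.058 without AAV-mVEGF-C 2. In this list *Lamb2* (-0.87) and *Hspg2* (-0.71), the perlecan gene, had an unadjusted p under 0.05, and *Lama4* (-0.87) did not (edgeR, unadjusted p = 0.058). Of 25 tested genes of the enzymes and chaperones that fold, modify and trim procollagen, 19 were below 0 with a median of -0.23, and 0 had an unadjusted p under 0.05. Their smallest p-values in edgeR were those of *P3h4* (-1.48, unadjusted p = 0.052), *Adamts2* (-0.80, unadjusted p = 0.082) and *P4ha3* (-1.29, unadjusted p = 0.113). The collagen receptors had a median of -0.039 over 12 tested genes (7 below 0 and 5 above), which was 0.050 without AAV-CTRL 2. Among them *Mrc2*, an endocytic receptor for collagen, was lower (-0.90, edgeR, unadjusted p = 0.013), as was the collagen-binding integrin *Itga11* (-1.14, unadjusted p = 0.046). Of 20 regulators of transforming growth factor-beta signaling and fibroblast identity, 16 were below 0, with a median of -0.38 (0.17 without AAV-CTRL 2), and *Foxc1* (-0.98), a transcription factor of meningeal fibroblasts, and *Ccn2* (-0.83) and *Ccn1* (-0.74), matricellular proteins, had an unadjusted p under 0.05, as did *Zic1* (-0.73). No gene of these 6 lists had an unadjusted p under 0.05 and a higher level, and all adjusted p-values were at least 0.999.

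Markers of other cells that the dissected dura could hold are given beside these values. The 18 other fibroblast markers summed to 2137 to 2514 CPM, led by *Vim*, *Gsn* and *Fxyd5*, which leukocytes also express. Their median log2 fold change was -0.14, with 12 genes below 0 and 6 above, up to 0.42. It was -0.50 without AAV-CTRL 1, -0.29 without AAV-mVEGF-C 2 and -0.056 without AAV-mVEGF-C 1. Within this list, *Tspan11* (-0.95), *Cdh11* (-0.81) and *Scara5* (-0.93) had an unadjusted p under 0.05, whereas *Clec3b*, *Crabp2* and *Dpep1* were at most 1.34 CPM in every library. The 10 mural cell markers, led by *Acta2*, *Notch3* and *Cspg4*, summed to 33.8 and 47.7 CPM in the controls and 29.1 and 36.2 CPM in the treated libraries. The 13 endothelial markers, led by *Pecam1*, *Vwf* and *Flt1*, summed to 99.1 and 131 CPM in the controls and 94.0 and 87.2 CPM in the treated libraries, and 10 of the 13 had a log2 fold change below 0, 1 of them, *Kdr* (-0.80), with an unadjusted p under 0.05. The 13 osteoblast markers, led by *Runx2*, *Alpl* and *Spp1*, summed to 105 and 187 CPM in the controls and 117 and 136 CPM in the treated libraries, and the defining markers *Ibsp*, *Sp7* and *Dmp1* were at most 1.40 CPM. Of the 11 osteoblast markers tested, 5 had a log2 fold change below 0 and 6 above, with a median of 0.0058 that ran from -0.73 without AAV-CTRL 1 to 0.39 without AAV-CTRL 2. *Alpl* (-0.87) and the low *Bglap2* (-2.56) had an unadjusted p under 0.05. The 6 chondrocyte markers summed to 12.7 and 8.20 CPM in the controls and 4.89 and 6.94 CPM in the treated libraries, with *Col2a1* at most 0.693 CPM. The 3 of them that were tested had log2 fold changes below 0, with a median of -0.88 (-0.14 without AAV-mVEGF-C 2 and -0.39 without AAV-CTRL 1), and 0 had an unadjusted p under 0.05 in edgeR. The 8 Schwann and neural markers summed to 105 to 126 CPM, nearly all of it *Mbp*, with *Sox10* at most 0.465 CPM.

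The 12 macrophage markers, led by *Csf1r*, *Mrc1* and *Cd14*, were also higher in the second library of each group, with 2327 and 3200 CPM in the controls and 1988 and 2902 CPM in the treated libraries. Their median log2 fold change was -0.22, and 0 of 12 had an unadjusted p under 0.05. This median was -0.46 without AAV-CTRL 1 or without AAV-mVEGF-C 2, and turned to 0.065 without AAV-CTRL 2 and 0.12 without AAV-mVEGF-C 1. The 7 erythroid markers summed to 122 and 156 CPM in the controls and 29.5 and 53.9 CPM in the treated libraries. Of these, 5 had an unadjusted p under 0.05 and lower levels, led by the globin genes *Hba-a2* (-2.05, standard error 0.35, unadjusted p = 0.00097, adjusted p = 0.687), *Hbb-bs* (-1.81) and *Hba-a1* (-1.79). The 8 platelet markers summed to 47.5 and 59.3 CPM in the controls and 32.7 and 47.6 CPM in the treated libraries. The sums of red cell, endothelial and chondrocyte genes were thus lower in the same group as that of the 48 matrix genes, and macrophage genes were higher in the same library of each group. Their part in the result was not tested.

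**Figure D4:**
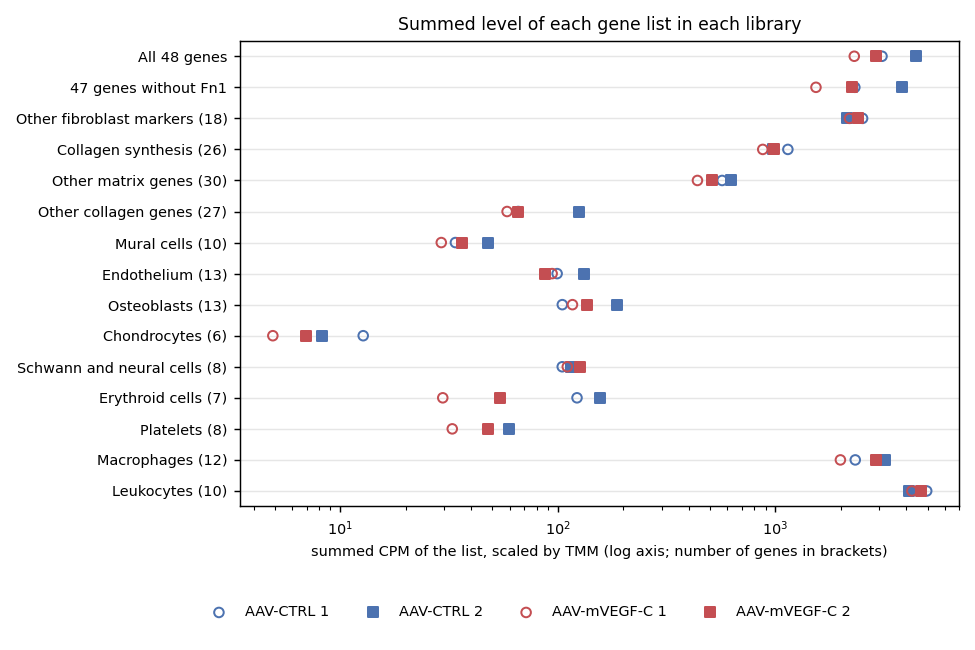
Summed CPM (x axis, log scale) of the 48 genes, of the 47 without *Fn1* and of 13 other lists in each library, with blue for AAV-CTRL and red for AAV-mVEGF-C. The leukocyte sums lay between 4127 and 4956 CPM, while both AAV-mVEGF-C libraries lay below both AAV-CTRL libraries for the 48 genes with or without *Fn1*, the other matrix genes, the endothelial and chondrocyte markers and, by the widest gap, the 7 erythroid markers.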

How the data were processed

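RNA of CD45+ cells sorted from collagenase-digested dura was made into libraries with a stranded total RNA kit for picogram inputs. The authors deposited estimated counts per gene, without normalization, of which 8.18% were not whole. A second deposited table gives TPM for these genes. The submitters' processing notes name FastQC, Trimmomatic, DRAGEN, Picard and mm10. The counting program, its strand setting and the annotation are not given in the sources used here, so reads shared between overlapping genes could be split in ways that change single values.

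Libraries were grouped by the treatment label, and table columns were matched to samples by the label description. The labels number the experiments alike in both groups but do not say whether same-numbered pools were handled together, and they name no batch. P-values measure the spread between 2 pools per group.

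Estimated counts were rounded and tested with the quasi-likelihood test of edgeR 4.0.16 (R 4.3.3, TMM, filterByExpr at its defaults, all 4 libraries, no covariate, Benjamini-Hochberg threshold 0.05 over 19806 genes, common dispersion 0.173). The standard error is the log2 fold change over the square root of F. TPM were used for levels between genes and, with pseudocounts of 1 and 0.1, in limma 3.58.1 as an alternative, beside DESeq2 1.42.0, a replicate block, other scaling and filters, and each library left out. The scripts were tested on simulated data. The genes and lists were chosen with earlier results of these data known. Named in full were, in each of 8 roles, the 2 genes with the highest mean TPM, and the 10 genes with the smallest p, 24 in total. From each pathway list at most the 3 genes with the smallest p were named. From each cell type list at most the 3 with the highest CPM were named, and some defining markers near 0. Other members, and the genes with an unadjusted p under 0.05 in the regulator, fibroblast, endothelial, osteoblast and erythroid lists, were named for completeness. Gene positions were taken from GENCODE M21, build GRCm38 (54349 identifiers with the same version).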

Additional observations from a re-analysis of the deposited data

How the results depend on the processing

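With RLE size factors, 43 of the 48 log2 fold changes were below 0, as with TMM, and the median was -0.75, whereas 45 were below 0 on both TPM scales. Over all genes, the number with an adjusted p under 0.05 was 77 in DESeq2, 268 without the expression filter and 2 to 2058 with a library left out, in place of 0. The number with an unadjusted p under 0.05 was 854, 1327 and 164 to 6466 in these settings, 902 in limma on log2(TPM + 1) and 884 on log2(TPM + 0.1), in place of 523. Of the 48 genes, the adjusted calls were 1 in DESeq2, 13 without the filter and 0 to 32 with a library left out, and the unadjusted lower calls were 28, 36 and 4 to 41, and 11 on log2(TPM + 1), in place of 17. With a library left out, the median over the 48 genes ran from -1.09 to -0.31, and the genes without overlap from 29 to 46. With fewer libraries a gap between groups is easier to reach for any gene. The share of all genes without overlap is not given for these settings, so this range cannot set the 48 genes apart from the rest. The difference in share of reads ran from -0.197 to -0.0384 percentage points, against -0.118 with all 4 libraries and -0.0289 in TPM. On log2(TPM + 0.1) the median of all genes was -0.11, and that of the 48 genes -0.82. *Lamc1* was -0.013 without the filter, -0.48 and -0.59 on log2(TPM + 1) and log2(TPM + 0.1), and from -0.28 (without AAV-CTRL 1) to 0.35 (without AAV-CTRL 2) with a library left out. *Fn1* was -0.079 and -0.080 on these TPM scales, and with a library left out ran from -0.12 (without AAV-CTRL 2, and -0.070 without AAV-mVEGF-C 1) to 0.25 (without AAV-CTRL 1). *Mgp* ran from -0.99 (without AAV-CTRL 1) to 0.45 (without AAV-CTRL 2) and *Serpinh1* from -1.10 to 0.025 in the same settings. Without AAV-CTRL 2, *Igfbp5* was -0.050, *Col4a1* -0.10, *Col12a1* -0.22 and *Bgn* -0.25. Without AAV-CTRL 1, these genes were at -0.95, -0.66, -1.17 and -1.12. Of the alternatives for the 24 genes named in full, 243 kept direction and side of the threshold, 35 passed it and 10 reversed. Of the alternatives for the medians of the pathway and cell type lists, 144 moved by less than 1 SD between replicates and 48 by more. The cause was not tested.

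Whether the experiment numbers pair the libraries is not settled. Deviations of same-numbered libraries from their group means correlated at -0.134 across all genes tested, whereas in most of the 48 genes library 2 was the higher in both groups. With the replicate block, 11 genes passed the adjusted threshold, 0 of them among the 48, and 31 of the 48 had an unadjusted p under 0.05. With the crossed pairing, added after the data had been seen, 54 genes passed and 0 of the 48. *Eln* and *Fap* had 16 and 20 reads in AAV-CTRL 1, the library with the most reads, and more in each of the other 3 libraries.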
